A study of Mus musculus with 4 samples.

Results

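The bone morphogenetic protein (BMP) receptor, SMAD and Id genes were followed in RNA from intestinal crypts of wild-type (WT) mice and of mice lacking CREPT in the intestinal epithelium. The set was a list of 10 genes chosen by name: the receptors Bmpr1a and Bmpr2, the signal carriers Smad1, Smad5 and Smad4, the inhibitors Smad6 and Smad7, and the target genes Id1, Id2 and Id3. These were 10 of the 53845 rows of the count table, each matched to its row by Ensembl identifier. CREPT, encoded by Rprd1b, binds the tail of RNA polymerase II, and the comparison asked how its loss changes crypt gene expression when no injury has been given.

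Each group had 2 libraries, described in the study as biological replicates, and both groups were of the C57BL/6 strain and untreated. The WT mice are labelled only as wildtype. Vil-CREPTKO mice were bred by crossing floxed mice with and without the Cre transgene, a cross whose Cre-negative offspring carry floxed alleles, and whether the WT libraries came from such offspring is not stated in the labels. The Vil-CREPTKO mice carried a Cre transgene under the villin promoter and a floxed Rprd1b gene in which exon 3 is flanked by loxP sites. The villin promoter is active in the epithelium and from the formation of the gut onward, so that cells of other types keep the gene and the deletion is present long before adulthood. Legends of the study give 2 mice per genotype for the RNA-seq, which with 2 libraries per group amounts to 1 mouse per library. Mice of the study were 6 to 8 weeks old, and the age is not given library by library.

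BMP ligands bring together a type II receptor, such as Bmpr2, and a type I receptor, such as Bmpr1a, which then phosphorylates Smad1 and Smad5. These enter the nucleus with Smad4 and act on genes that include Id1, Id2 and Id3, whose products bind E proteins and keep them off DNA, and Smad6 and Smad7, whose products act back on the receptors. In the intestine, BMP ligands and their antagonists come largely from the mesenchyme, signalling is weak at the crypt base and strong on the villus, and it restrains stem cells. Inherited loss of either the human Bmpr1a or the human Smad4 counterpart causes juvenile polyposis.

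Libraries held 47241049 to 49369315 counts. Rprd1b stood at 60.5 and 61.6 CPM (counts over the tested genes relative to the TMM-scaled library total) in WT and at 26.3 and 29.0 CPM in Vil-CREPTKO. Its log2 fold change was -1.14 ± 0.12 (SE, adjusted p = 0.0041, edgeR's quasi-likelihood test), with counts taken over the whole gene although only exon 3 is floxed. Epithelial markers were abundant: the 10 on the crypt list, led by Krt8, summed to 9606 to 10130 CPM, with Epcam at 1270 to 1411 CPM and Vil1 at 1250 to 2153 CPM in all libraries. Of the 10, 6 had a negative and 4 a positive log2 fold change, and 0 had an adjusted p under 0.05 by edgeR. Both Vil-CREPTKO libraries lay below both WT libraries in 2, Lgr5 and Smoc2 (20%, against 24.2% of all tested genes). They lay above both in 2, Krt8 and Krt19 (20%, against 21%). Lgr5 measured 18.7 and 18.2 CPM in WT and 10.95 and 17.45 CPM in Vil-CREPTKO. Lgr5, Smoc2 and Krt19 were named after their values were seen. The WT replicate 2 library stood apart, with 863 CPM of Xist and 0 CPM over 4 Y-linked genes against at most 0.53 CPM of Xist and 148 to 164 CPM of Y-linked genes in the others, so the groups were not matched in this respect. The Vil-CREPTKO replicate 1 library had the highest summed level of 11 villus enterocyte markers, led by Apoa1, at 19240 CPM against 9970 to 12780 CPM elsewhere, and the highest mitochondrial share, 10.2% against 6.75% to 7.62%. None of these 11 markers had an adjusted p under 0.05. At an unadjusted p under 0.05 by edgeR, 4 were higher and 1 was lower in Vil-CREPTKO (45.5%, against 14.3% of all tested genes). In all, 8 had a positive and 3 a negative log2 fold change. Both Vil-CREPTKO libraries lay above both WT libraries in 4 (36.4%, against 21% of all tested genes). They lay below both in 1 (9.09%, against 24.2%). As in any bulk measurement, fewer cells of a type and less RNA per cell cannot be told apart.

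All 10 genes passed the filter on low counts, with 387 to 6222 counts in a library. None was lower and none was higher in Vil-CREPTKO at an adjusted p under 0.05, against a background of 2.29% of the 17504 tested genes called lower, 0.423% called higher and 2.71% called either way by edgeR's quasi-likelihood test. With a log2 fold change over 1 in size also required, the count stayed at 0, against 1.64% of all tested genes. At an unadjusted p under 0.05 the count was also 0 of 10, against 14.3% of all tested genes, and DESeq2 called 0 of 10 as well. The lowest adjusted p of the set was 0.45, for Smad7. Their log2 fold changes (Vil-CREPTKO over WT) ran from -0.33 to 0.16 with a median of -0.03, against a median of -0.006 over all tested genes, and 6 of the 10 were negative, against 50.9% of all tested genes. The median size of the change, regardless of sign, was 0.08 in the set and 0.22 over all tested genes, and 36.4% of the tested genes had a larger change than the largest of the 10. Neither comparison was matched for count level, and the tested genes include many with fewer counts, so neither sets the 10 genes apart. In 8 of the 10 genes the log2 fold change was smaller than the larger of the log2 differences between libraries of the same group. The same share was not computed over all tested genes, so this count does not set the 10 genes apart.

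A p that misses the threshold does not show that the groups were alike, so the intervals set what could have been missed. The 95% intervals held 0 in 10 of 10 genes and held a doubling or halving (log2 fold change of 1 or -1) in 0 of 10. Their lowest bound was -0.81, for Smad6, and their highest was 0.45, for Smad4. The standard errors were 0.11 to 0.21 on the log2 scale.

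**Figure D1:**
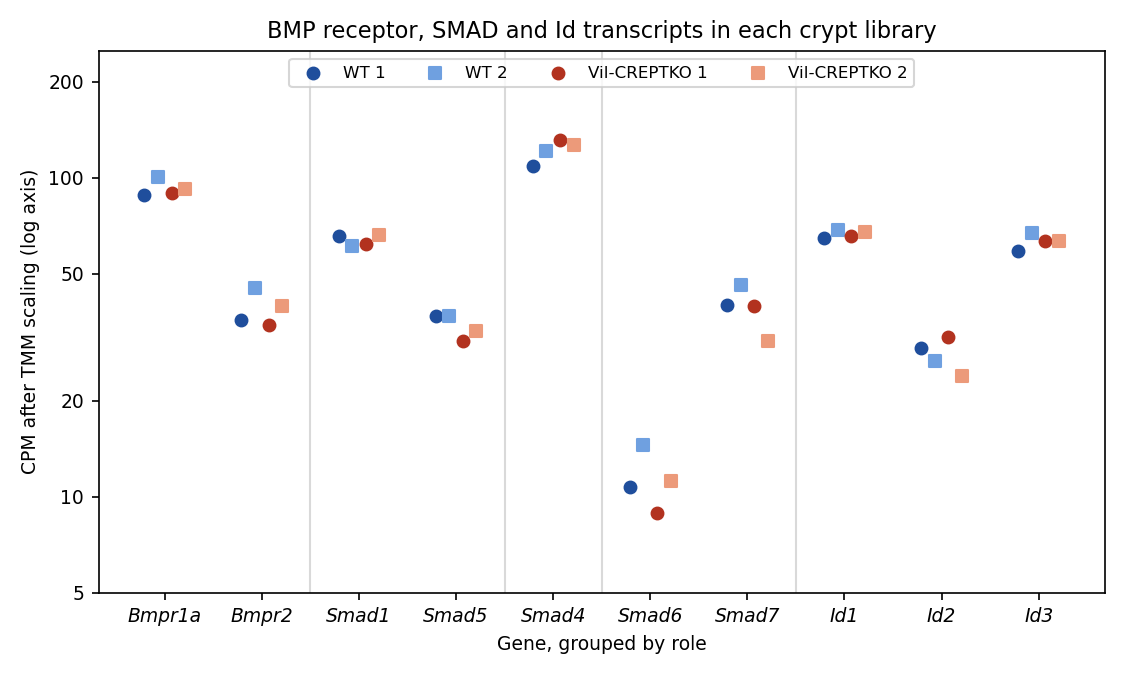
CPM after TMM scaling (vertical, log axis) of each of the 10 genes in each library, with genes grouped by role and blue for WT and red for Vil-CREPTKO. The groups lie apart in Smad5, Smad7 and Smad4 and overlap in the other 7 genes.

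The groups did not overlap in CPM in 3 genes. Smad5 and Smad7 lay lower in both Vil-CREPTKO libraries than in both WT libraries, 2 of 10 genes against 24.2% of all tested genes. Smad4 lay higher in both, 1 of 10 genes against 21% of all tested genes. These shares were near the background or under it.

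The Id genes are a common readout of BMP signalling, and they stood at almost the same level in both groups. Id1 (ENSMUSG00000042745), a short gene that encodes a helix-loop-helix protein without a DNA-binding region, lies at chr2:152736251-152737410 on the plus strand of GRCm38. It measured 64.9 and 68.4 CPM in WT and 65.9 and 67.8 CPM in Vil-CREPTKO. Both Vil-CREPTKO values lay between the WT values. This gave a log2 fold change of 0.004 ± 0.11 (SE, 95% interval -0.25 to 0.26, adjusted p = 0.99, edgeR's quasi-likelihood test), so that changes from a 16.0% decrease to a 19.8% increase remained possible.

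Id3 (ENSMUSG00000007872, chr4:136143497-136145755, plus strand) encodes a protein of the same family, often switched on with Id1. It measured 59.0 and 66.9 CPM in WT, with 63.5 and 63.3 CPM in Vil-CREPTKO. Here too the WT values enclosed the Vil-CREPTKO values, which differed by less than 1 CPM from each other. Its log2 fold change was 0.01 ± 0.12 (SE, adjusted p = 0.99, edgeR), with an interval from a 16.6% decrease to a 21.6% increase.

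Id2 (ENSMUSG00000020644, chr12:25093799-25097140, minus strand), also known for its role in lymphoid cells, measured 29.3 and 26.7 CPM in WT. In Vil-CREPTKO it measured 31.6 CPM in replicate 1 and 23.9 CPM in replicate 2, the highest and the lowest of the 4 values. The groups overlapped, and the spread within Vil-CREPTKO (27.7 ± 5.48 CPM, SD, n = 2) was wider than in WT (28.0 ± 1.82 CPM, SD, n = 2). The log2 fold change of -0.02 ± 0.16 (SE, adjusted p = 0.98, edgeR) turned to 0.18 without Vil-CREPTKO replicate 2 and was -0.23 without Vil-CREPTKO replicate 1. Summed over the 3 Id genes, the level was 153 and 162 CPM in WT and 161 and 155 CPM in Vil-CREPTKO.

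SMAD proteins reach target genes through short DNA sequences, of which GGCGCC (bound by Smad1 and Smad5 with Smad4, the same on both strands) and CAGAC, which on the other strand reads as the letters GTCTG, were looked for in the 250 bases before the RefSeq start of each gene on GRCm38.p6. Windows were at hand for 7 of the 10 genes: Bmpr1a, Bmpr2, Id2, Id3, Smad1, Smad5 and Smad6. Those of the Id genes, Id2 and Id3, are shown with matches in capitals. That of Smad6, also a target gene, held no match and is not shown. The Id windows lie at chr12:25096093-25096342 on the minus strand for Id2 and chr4:136143572-136143821 on the plus strand for Id3. Both windows lie inside the GENCODE gene spans given above, since the RefSeq starts lie downstream of the outermost GENCODE starts.
Id2: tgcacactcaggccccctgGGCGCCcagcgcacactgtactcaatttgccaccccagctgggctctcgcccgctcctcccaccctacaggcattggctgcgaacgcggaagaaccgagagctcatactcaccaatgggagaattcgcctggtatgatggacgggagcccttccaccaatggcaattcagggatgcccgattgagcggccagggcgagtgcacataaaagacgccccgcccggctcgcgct
Id3: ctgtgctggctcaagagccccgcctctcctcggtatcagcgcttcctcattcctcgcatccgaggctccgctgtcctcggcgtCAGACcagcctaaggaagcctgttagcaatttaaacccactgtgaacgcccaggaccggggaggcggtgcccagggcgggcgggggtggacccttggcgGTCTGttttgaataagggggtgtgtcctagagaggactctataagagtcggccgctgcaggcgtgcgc
The Id2 window held GGCGCC beginning 231 bases before the start, and the Id3 window held CAGAC on 1 strand or the other beginning 167 and 68 bases before the start. GGCGCC also stood 198 bases before the start of Bmpr1a, 105 bases before that of Bmpr2 and 19 bases before 1 of the Smad5 starts. CAGAC stood 21 bases before another Smad5 start, and the windows of Smad1 and Smad6 held neither. Over all 32851 promoter windows, 9.59% held GGCGCC and 42.2% held CAGAC, so that a CAGAC match in particular is common. Counted per gene, the shares were 10.8% and 45.8%. These backgrounds were not matched for GC content, which was 60.0% to 78.8% in the windows searched here. A match is a run of letters, not a measured binding site.

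The receptors had log2 fold changes close to 0, and their groups overlapped. Bmpr1a (ENSMUSG00000021796, chr14:34410734-34503341, minus strand), the type I receptor kinase that phosphorylates Smad1 and Smad5, measured 88.0 and 100.4 CPM in WT and 89.7 and 92.4 CPM in Vil-CREPTKO. Both Vil-CREPTKO values fell between the WT values, and the mean was 94.2 ± 8.74 CPM in WT and 91.0 ± 1.88 CPM in Vil-CREPTKO (SD, n = 2 each). The log2 fold change was -0.05 ± 0.12 (SE, 95% interval -0.33 to 0.23, adjusted p = 0.91, edgeR). An antisense gene, Gm17110, shares 290 exonic bases with Bmpr1a, and the strand setting of the counting is not stated, but it held at most 13 counts in a library against 3899 to 4940 for Bmpr1a.

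Bmpr2 (ENSMUSG00000067336, chr1:59763400-59879014, plus strand), the type II receptor that activates Bmpr1a, measured 35.8 and 45.0 CPM in WT and 34.6 and 39.7 CPM in Vil-CREPTKO. The groups overlapped, with WT replicate 2 the highest and Vil-CREPTKO replicate 1 the lowest. On the log2 scale they differed by -0.12 ± 0.15 (SE, adjusted p = 0.79, edgeR). Without the WT replicate 2 library both receptors turned to slightly positive values, 0.05 for Bmpr1a and 0.06 for Bmpr2.

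Among the SMADs that receptors phosphorylate, Smad1 stood at nearly the same mean level in both groups, and Smad5 lay lower in Vil-CREPTKO without passing the test. Smad1 (ENSMUSG00000031681, chr8:79338395-79399518, minus strand) measured 65.7 and 61.1 CPM in WT and 62.0 and 66.2 CPM in Vil-CREPTKO, with the values of the groups interleaved. The difference was 0.02 ± 0.12 on the log2 scale (SE, 95% interval -0.25 to 0.28, adjusted p = 0.97, edgeR).

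Smad5 (ENSMUSG00000021540, chr13:56703010-56742377, plus strand), which shares much of the work of Smad1, measured 36.8 CPM in both WT libraries and 30.8 and 33.0 CPM in Vil-CREPTKO. Both Vil-CREPTKO libraries lay under both WT libraries, at 83.7% and 89.6% of the WT mean. The WT values were almost equal (36.8 ± 0.051 CPM, SD, n = 2), while the Vil-CREPTKO mean was 31.9 ± 1.55 CPM. With the spread estimated across all genes, the log2 fold change was -0.21 ± 0.12 (SE, 95% interval -0.48 to 0.07, adjusted p = 0.51, edgeR), which did not pass the test. It ranged from -0.30 to -0.16 over the 12 alternative settings. The difference between Smad1 and Smad5 in their log2 fold changes was not tested.

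Smad4 (ENSMUSG00000024515, chr18:73639009-73703780, minus strand), the partner common to BMP and transforming growth factor beta (TGF-β) signals, was the most abundant of the 10 in CPM. It measured 109 and 122 CPM in WT and 132 and 127 CPM in Vil-CREPTKO. Both Vil-CREPTKO libraries lay above both WT libraries, at 114% and 109.8% of the WT mean. Its log2 fold change was 0.16 ± 0.13 (SE, 95% interval -0.13 to 0.45, adjusted p = 0.64, edgeR) and stayed positive, from 0.07 to 0.24, over the 12 alternatives without passing the test in any.

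The inhibitory SMADs had the most negative values of the set. Smad7 (ENSMUSG00000025880, chr18:75367529-75395935, plus strand), which brings ubiquitin ligases to activated receptors, measured 40.0 and 46.2 CPM in WT and 39.6 and 30.9 CPM in Vil-CREPTKO. The groups did not overlap, but the lower WT library and the higher Vil-CREPTKO library were nearly level. Its log2 fold change was -0.29 ± 0.15 (SE, 95% interval -0.64 to 0.06, unadjusted p = 0.091, adjusted p = 0.45, edgeR). Its size rested largely on Vil-CREPTKO replicate 2, and the value was -0.12 without that library and -0.49 without Vil-CREPTKO replicate 1.

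Smad6 (ENSMUSG00000036867, chr9:63953076-64022059, minus strand), which acts mainly against BMP signals by blocking Smad1 and Smad5, was the least counted of the set. It measured 10.7 and 14.5 CPM in WT and 8.90 and 11.2 CPM in Vil-CREPTKO. The groups overlapped, with Vil-CREPTKO replicate 2 above WT replicate 1. Its log2 fold change of -0.33 ± 0.21 (SE, adjusted p = 0.55, edgeR) had the widest interval of the 10, one that allows a decrease of up to 42.8%. Without the WT replicate 2 library, the one with Xist, the value was -0.09, and without WT replicate 1 it was -0.53. The sum of the inhibitory SMADs was 50.8 and 60.7 CPM in WT and 48.5 and 42.1 CPM in Vil-CREPTKO. The groups did not overlap in this sum, which was mostly Smad7. Among single genes, 24.2% of all tested lay lower in Vil-CREPTKO without overlap. The sums of the receptors and of the receptor-activated SMADs overlapped between the groups.

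**Figure D2:**
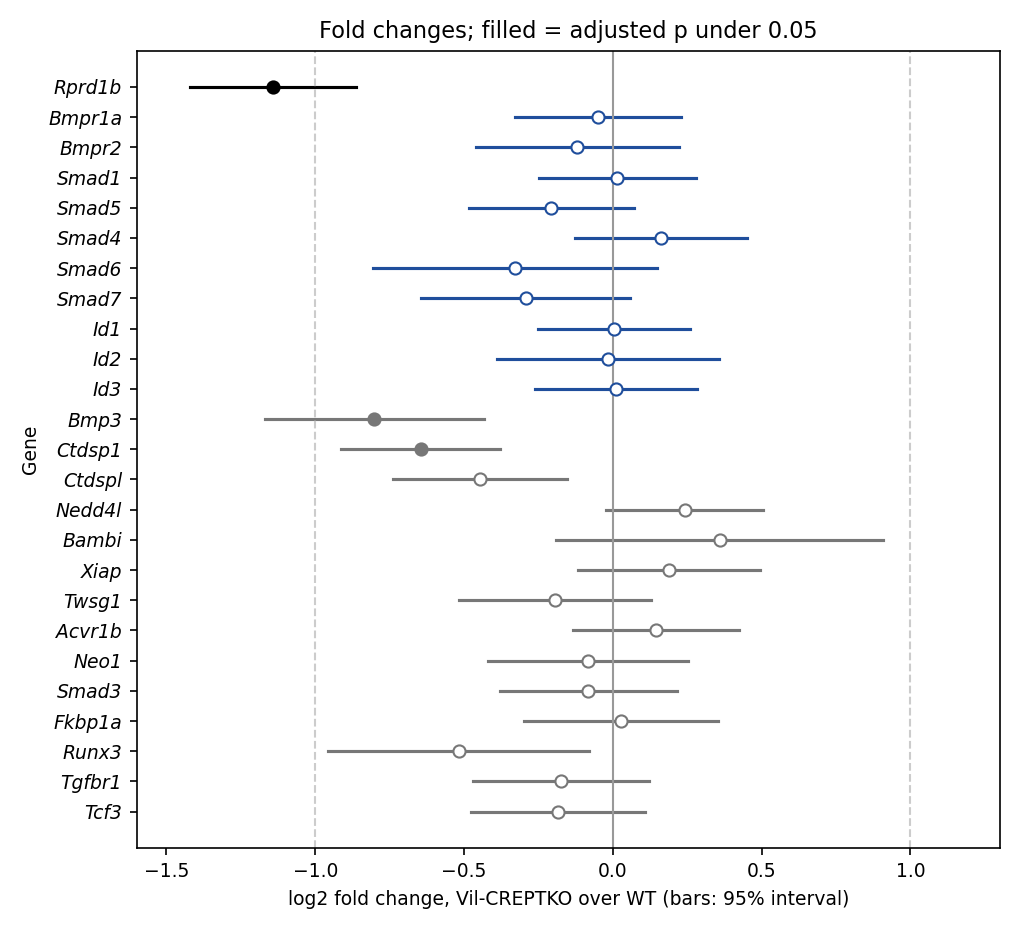
Log2 fold change, Vil-CREPTKO over WT (horizontal), with its 95% interval, for Rprd1b (black), the 10 genes (blue) and other genes of the pathway named by rule (grey), filled where the adjusted p was under 0.05. The 10 blue intervals cross 0 and lie within -0.81 and 0.45, while that of Rprd1b runs from -1.42 to -0.86.

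Levels of different genes were compared per kilobase of the longest annotated transcript. On this scale, as a mean over the 4 libraries, Id1 was the highest of the set at 57.5 ± 1.42 CPM per kilobase (SD, n = 4), followed by Id3 at 49.4 ± 2.55 and Smad4 at 36.1 ± 2.84. The ranges of these 3 genes over libraries did not touch. Smad1 (16.9 ± 0.67 CPM per kilobase), Bmpr1a (15.6 ± 0.92) and Id2 (14.2 ± 1.69) followed, each with a range that overlapped that of its neighbour. Smad7 stood alone at 9.15 ± 1.48 CPM per kilobase. Smad5 (5.22 ± 0.45), Smad6 (3.82 ± 0.79) and Bmpr2 (3.01 ± 0.36) closed the order with overlapping ranges. Id1 thus lay at the 92.4th percentile of tested genes on the per kilobase scale and Bmpr2 at the 43.4th. The order of the middle and low genes depended on the transcript length used. With the mean length of basic transcripts, Bmpr1a and Id2 stood above Smad1, and Smad6 above Smad5. Smad7 then had 16.95 CPM per kilobase, next to Smad1 at 18.55, so its distance from the genes above depended on the length too. Id1, Id3 and Smad4 led and Bmpr2 came last as before.

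**Figure D3:**
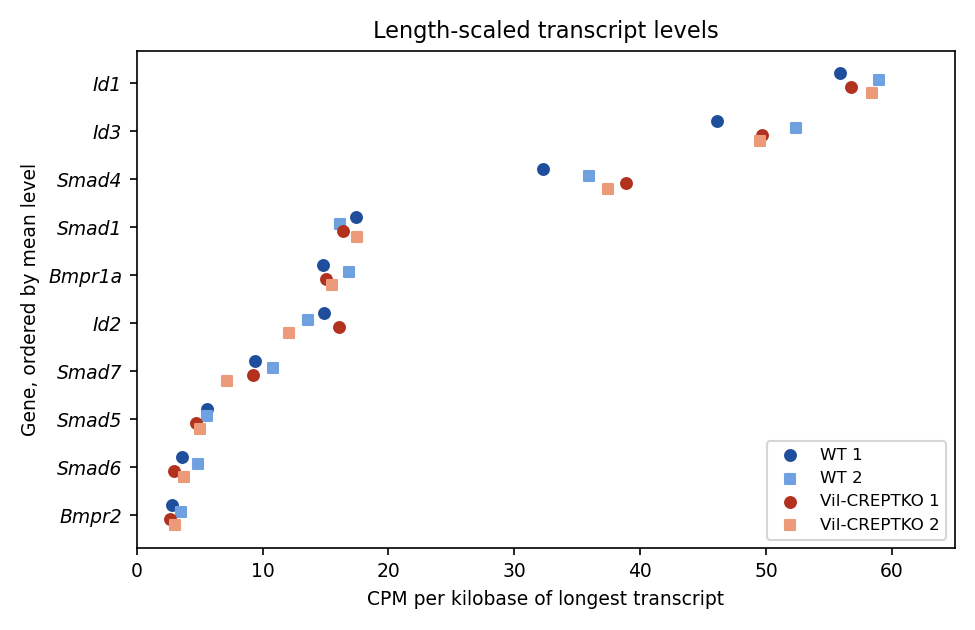
CPM per kilobase of the longest transcript (horizontal, linear axis) of each gene, ordered by mean level, with 1 point per library. Id1, Id3 and Smad4 lie apart from the rest, and the spread between groups is small beside the distance between these genes.

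The wider pathway was read from a list of 78 further genes, of which 54 passed the filter on low counts. Of these 54, 2 were lower in Vil-CREPTKO at an adjusted p under 0.05 (3.7%, against 2.29% of all tested genes) and 0 were higher (against 0.423%), by edgeR's quasi-likelihood test. DESeq2 also gave 2 lower and 0 higher. At an unadjusted p under 0.05, 6 were lower (11.1%, against 9.76% of all tested genes) and 0 were higher (against 4.49%). The median log2 fold change of the 54 genes was -0.07. The other 24 genes had at most 18 counts in any library, and 16 of them had at most 3 counts in every library.

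Of the 12 antagonists listed, 3 were tested, and Twsg1 and Fstl1 among them were detected in every library, at 33.9 to 45.2 CPM and at 2.55 to 3.08 CPM. Some ligands and antagonists known from the mesenchyme were nearly undetected. Bmp4 had at most 1 count in a library, Nog (noggin) had 1 count in all, in WT replicate 2, and Grem1 (gremlin) had 1 count in all, in Vil-CREPTKO replicate 1. Bmpr1b, a further type I BMP receptor, had 0 to 4 counts. These 4 genes, Fstl1 and Nbl1, and Pdgfra and Acta2 among the markers that follow, were picked out after their values were seen. Markers of mesenchyme, 7 of 9 of them tested, had a summed level of 15.7 to 16.4 CPM in WT and 11.5 to 28.5 CPM in Vil-CREPTKO, led by Vim, and with Pdgfra at 0 to 29 counts. The sum of 28.5 CPM was that of Vil-CREPTKO replicate 1, while Vil-CREPTKO replicate 2, at 11.5 CPM, lay under both WT libraries. Of those 7, 1 had a negative and 6 had a positive log2 fold change, and 0 had an adjusted p under 0.05. The groups lay apart in CPM in 0 of the 7, against 24.2% lower and 21% higher among all tested genes. Smooth muscle markers summed to 0.41 to 0.65 CPM, with Acta2 at 0 to 2 counts, and endothelial markers, led by Pecam1, to 5.65 to 5.78 CPM in WT and 4.36 to 5.06 CPM in Vil-CREPTKO, from 1 of 5 and 3 of 6 markers that were tested. Endothelial cells are known to express Id1 and Id3, and lymphoid cells Id2, and the part of such cells in the Id levels was not tested. The immune markers summed to 527 to 837 CPM over the libraries.

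The ligand that passed the test was Bmp3 (chr5:98854415-98884396, plus strand), a BMP that acts against the other ligands at their type II receptors. It measured 46.5 and 43.6 CPM in WT and 29.8 and 21.9 CPM in Vil-CREPTKO. Both Vil-CREPTKO libraries were lower than both WT libraries, at 66.2% and 48.7% of the WT mean. Its log2 fold change was -0.80 ± 0.16 (SE, adjusted p = 0.039, edgeR). It was -0.59 with an adjusted p of 0.060 without Vil-CREPTKO replicate 2, and its adjusted p was 0.051 with RLE scaling and 0.065 with upper-quartile scaling. Of the 16 genes listed as ligands, 7 were tested and 6 had a negative log2 fold change, against 50.9% of all tested genes. Bmp1, 1 of these 6 (-0.20), is a protease rather than a ligand, and is named here for that reason. Bmp2, the canonical BMP of the epithelium and picked out after its values were seen, measured 9.44 and 14.1 CPM in WT and 8.15 and 6.70 CPM in Vil-CREPTKO, with a log2 fold change of -0.67 ± 0.23 (SE, unadjusted p = 0.019, adjusted p = 0.22, edgeR).

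The other call was Ctdsp1 (chr1:74391509-74397285, plus strand), a phosphatase that acts on the tail of RNA polymerase II and also on Smad1. Its level was 118 and 124 CPM in WT and 78.5 and 76.4 CPM in Vil-CREPTKO, a gap much larger than the spread within either group. The log2 fold change was -0.65 ± 0.12 (SE, adjusted p = 0.026, edgeR). After correction for GC content and transcript length it was -0.49 (adjusted p = 0.088), and without WT replicate 2 it was -0.61 (adjusted p = 0.11). Its relative Ctdspl measured 44.6 and 39.6 CPM in WT and 29.8 and 32.1 CPM in Vil-CREPTKO, which did not pass the test (-0.45 ± 0.13 on the log2 scale, SE, unadjusted p = 0.0075, adjusted p = 0.13, edgeR). Of the 20 regulators listed, all of them tested, 9 had a negative log2 fold change.

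No other gene named by the rule passed the test. The lowest p-values among genes with a positive value belonged to Nedd4l, a ubiquitin ligase of SMADs (63.7 and 69.6 CPM in WT, 76.6 and 81.0 CPM in Vil-CREPTKO, adjusted p = 0.40, edgeR), to the decoy receptor Bambi (log2 fold change 0.36, adjusted p = 0.58) and to Xiap, a partner of receptor signalling (0.19, adjusted p = 0.60). Among the most abundant genes of each role, the activin receptor Acvr1b had a log2 fold change of 0.14 (adjusted p = 0.67), the antagonist Twsg1 -0.19 (0.61), the co-receptor Neo1 -0.08 (0.87) and the receptor-binding Fkbp1a 0.03 (0.96), all by edgeR. Smad3, which carries TGF-β rather than BMP signals, had -0.08 (0.85), the TGF-β receptor Tgfbr1 -0.17 (0.62) and Tcf3, an E protein that Id proteins bind, -0.18 (0.60). The signs of Neo1, Smad3 and Fkbp1a turned under some alternatives.

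Runx3, the most abundant of the other target genes and a factor that T cells also use, measured 12.3 and 10.2 CPM in WT and 8.51 and 7.23 CPM in Vil-CREPTKO (-0.52 ± 0.19 on the log2 scale, SE, adjusted p = 0.25, edgeR). The sum of 10 immune markers, led by Gzma, moved with it, at 837 and 668 CPM in WT and 625 and 527 CPM in Vil-CREPTKO; 6 of the 10 had a negative and 4 a positive log2 fold change, and 0 had an adjusted p under 0.05, with 2 at an unadjusted p under 0.05. The part of immune cells in the Runx3 value was not tested.

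**Figure D4:**
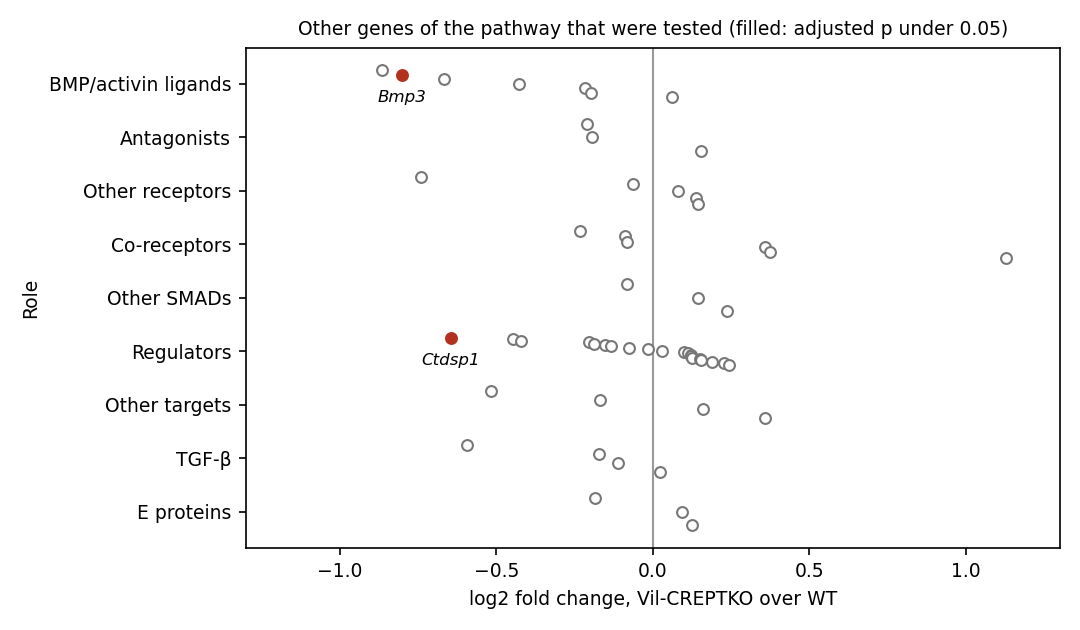
Log2 fold change, Vil-CREPTKO over WT (horizontal), of the 54 tested genes of the wider pathway by role, with 1 point per gene and role, so that Bambi appears as co-receptor and as target. Bmp3 and Ctdsp1, filled, were the genes with an adjusted p under 0.05. Left of 0 lie 6 of the 7 genes listed as ligands, among them Bmp1, a protease.

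How far the 10 genes depended on any single library or setting was followed over 12 alternatives, which gave 120 values. None of the 120 had an adjusted p under 0.05, and the lowest was 0.20, for Smad7 without Vil-CREPTKO replicate 1. The values ran from -0.53 to 0.24 on the log2 scale. Smad4, Smad5, Smad6 and Smad7 kept their sign in all 12, and all 15 turns of sign fell in the other 6 genes. Of 12 values per gene, the sign turned in 5 for Id2, 3 each for Id1 and Smad1, 2 for Id3, and 1 each for Bmpr1a and Bmpr2.

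**Figure D5:**
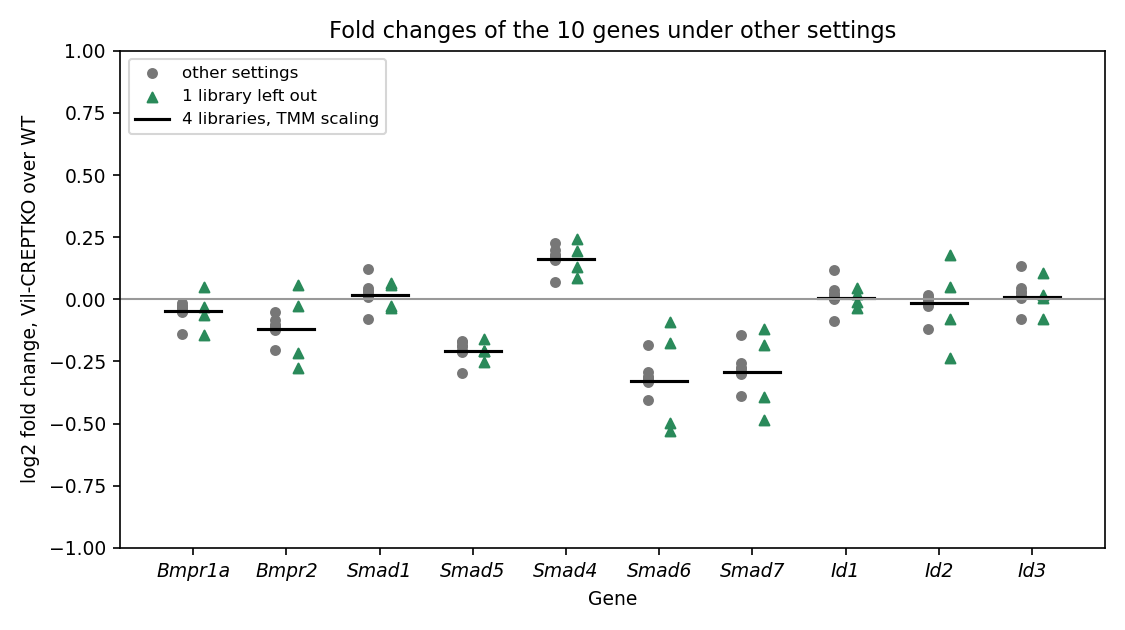
Log2 fold change, Vil-CREPTKO over WT (vertical), of each gene with all 4 libraries (bar), under 8 other settings of the fit (grey) and with 1 library left out (green triangles). The points of Smad6, Smad7 and Id2 are the most spread when a library is left out, and the Id1 and Smad1 points straddle 0.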

How the data were processed

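RNA-seq of crypts was available for 2 WT and 2 Vil-CREPTKO libraries. The deposited values were whole-number read counts per gene, which the authors made by mapping reads with Bowtie2 to transcripts of GRCm38.p6 and counting with RSEM; the submitters' processing notes also name CASAVA 1.8. Bowtie2 and RSEM versions, strand setting and rounding are not given in the sources used here. Names and coordinates came from GENCODE M21 (53360 of 53845 rows matched) and promoter sequences from RefSeq.

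Counts were fitted in R 4.3.3 with edgeR 4.0.16 (filterByExpr, 17504 genes kept, TMM, glmQLFit and glmQLFTest with the group as the only term, two-sided, Benjamini-Hochberg over all tested genes). The 95% interval used the SE, which is the log2 fold change over the square root of F. Common biological coefficient of variation was 0.188, and 3 counts equalled 0.059 to 0.069 CPM. Libraries of a group differed beyond counting noise (chi-square of 49.8 and 70.2 per gene).

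The 10 genes and all lists were chosen with earlier results of these data known. Named from the wider pathway were genes with an adjusted p under 0.05, the 3 lowest p-values in each direction and the most abundant gene per kilobase of each role, 1 marker per list with Epcam and Vil1 as tissue checks, and others only where said. The fit was repeated with DESeq2 1.42.0, which the study had used, with scaling by RLE, by the upper quartile or by library size, without the low-count filter, with a minimum of 10 counts in every library, with a loess correction for GC content and length (span 0.5), with a replicate block, and with each library left out.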

Additional observations from a re-analysis of the deposited data

How the results depend on the processing

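Under the 12 alternatives 0 of the 10 genes passed an adjusted p of 0.05, and Rprd1b stayed lower, at -1.23 to -1.07. The count of tested genes that passed was 474, against 836 with DESeq2, 1233 without the filter and 365 to 695 under the others. The median log2 fold change of the 10 genes was -0.03 and ranged from -0.13, with library-size scaling (where the median of all genes was -0.10), to 0.005 without WT replicate 2. The wider pathway had 2 lower genes, against 1 with RLE scaling, upper-quartile scaling, and GC content and length correction, 3 without the filter, and 1 to 3 with a library left out. It was 1 without WT replicate 2 or without Vil-CREPTKO replicate 2, and the cause was not tested. Signs turned for Id2 with DESeq2 (0.0039), RLE (0.0038) and upper-quartile scaling (0.018), for Smad1 (-0.077), Id1 (-0.086), Id3 (-0.080) and Fkbp1a (-0.063) with library-size scaling, and for Smad3 (0.039) with GC content and length correction. With a library left out, both signs occurred for Bmpr1a (-0.14 to 0.050), Bmpr2 (-0.28 to 0.056), Smad1 (-0.035 to 0.067), Id1 (-0.035 to 0.045), Id2 (-0.23 to 0.18), Id3 (-0.080 to 0.10), Neo1 (-0.25 to 0.10), Smad3 (-0.19 to 0.031) and Fkbp1a (-0.084 to 0.15).

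The sample titles link libraries of the 2 groups by number only. Deviations of same-numbered libraries correlated at -0.01 across genes. With 2 libraries per group, this value cannot settle whether same-numbered libraries were handled together. With the replicate block, 558 genes had an adjusted p under 0.05, 0 of the 10 genes did, their median was -0.04 and the pathway count was 2.

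Depth was not the main limit, since each group had only 2 libraries and the spread between them sets the intervals. A decrease of Smad6 by up to 42.8% lies within its interval. The WT replicate 2 library carries Xist, so sex is not balanced between the groups. Without it, the remaining libraries share the Y-linked pattern, but WT has 1 library, assumed to vary like the other group.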
